A study of Homo sapiens with 6 samples.

Results

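The genes described here code for the leukocyte immunoglobulin-like receptors (LILRA and LILRB), the CD300 receptors, the sialic acid-binding SIGLEC lectins, the Fc receptors and Fc receptor-like proteins (FCGR, FCRL, FCER1A, FCAR), and the receptors PILRA, TREM1 and TREM2. They were taken by name: a probe set belonged to them when its only annotated gene symbol was one of these or began with one of these stems, whatever its value. This gave 97 of 54613 probe sets and 47 of 19775 genes, namely 10 LILR genes, 6 CD300 genes, 12 SIGLEC genes, 7 Fc gamma receptor genes, 7 FCRL genes, FCER1A and FCAR, and 3 genes of the PILR and TREM kind. Of the 47 genes, 43 code for a protein, 3 are transcribed pseudogenes and 1 is a long non-coding RNA.

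RNA came from K562, an established human erythroleukemia line of chronic myeloid origin, carrying ERG3, an isoform of the ETS transcription factor ERG, under a doxycycline (DOX) responsive promoter (pTRE). The methods describe the clones CL4, CL9 and CL46 as independently and stably transfected. Each was grown for 8 days with 1 µg/ml DOX daily (ERG-induced) and without it (non-induced), with 1 Affymetrix U133 Plus 2.0 array for each clone and condition, 6 arrays in all. The paper's methods also give 8 days, while its heat map legend for these clones gives 6 days. The non-induced arrays carry the same construct, and a change due to ERG cannot be told apart from a change due to DOX itself, as no array of DOX-treated cells without the construct was analysed here.

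These receptors sit mostly on myeloid cells, B cells and natural killer cells, and many come as pairs. Inhibitory members (LILRB, CD300A, most SIGLECs, FCGR2B) carry tyrosine motifs called ITIMs in their cytoplasmic tails, which recruit the phosphatases SHP-1 (PTPN6), SHP-2 (PTPN11) and SHIP-1 (INPP5D). Activating members (LILRA, FCGR1A, FCAR, TREM1, TREM2) have short tails and signal through the adaptors FCER1G or TYROBP, whose ITAM motifs bind the kinase SYK. K562 cells are best known for erythroid and megakaryocytic features, and FCGR2A is a classical surface receptor of the line.

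A few facts of the arrays bear on every value. The deposited values are ratios, for most probe sets to their own median over the 6 arrays. So brightness is unknown, presence of a transcript cannot be read from them, and levels of different genes cannot be set side by side. For 3938 of 54675 probe sets the median ratio was below 1, so these are not ratios to that median. They included 9 of the 97 receptor probe sets (9.28%, against 7.21% of all tested), 6 of them among the 21 for FCRL genes. All levels below are log2 of that ratio, and all differences are log2, ERG-induced minus non-induced. In bulk RNA, fewer cells expressing a gene and less of its RNA per cell cannot be told apart. The 4 ERG probe sets averaged -0.76 (SE 0.63, adjusted p = 0.671), or -1.35, -0.80 and -0.14 by clone, so induction does not show in them. Whether they read the ERG3 construct is unknown here, and every direction below is that of the DOX labels. The paper tracked induced cells by DsRed fluorescence and reports a rise of TYROBP and SELP by PCR, plotted for CL9. Unless said otherwise, values given 3 at a time are those of CL4, CL9 and CL46 in this order. Small-subunit ribosomal RNA control probe sets were higher in the induced array by 1.21, 0.59 and 0.82 in CL4, CL9 and CL46; the part of RNA quality in the results was not tested.

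Calls followed the thresholds of the study, at least a 2-fold change together with a p under 0.05 before adjustment, here from limma. At these thresholds CD300A and LILRB2 rose and no gene of the 47 fell. The 2 genes higher make 4.26% of the 47, against 3.12% of all genes, a share near that background. The 0 genes lower stand against 6.32% of all genes, so genes called lower were fewer here than over the arrays as a whole, a description with no test. After Benjamini-Hochberg adjustment over all genes none of the 47 passed 0.05, the lowest adjusted p being 0.206. Nor did any of the 19775 genes, where the lowest by limma was 0.101. By limma, 3 of the 47 had an unadjusted p under 0.05, the third being LILRB1. This is a smaller share than the 2544 of 19775 over all genes.

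The median difference of the 47 genes was 0.06, against -0.03 over all genes. The difference was above 0 in all 3 clones for 15 genes (31.9%, against 17.8% of all genes), below 0 in all 3 for 6 (12.8%, against 22.4%), and mixed for 26. The 3 induced arrays lay wholly above the 3 non-induced ones for 5 genes, CD300A, CD300C, LILRB2, LILRB1 and LILRA6. That is 10.6% of the 47, against 7.98% of all genes. They lay wholly below for 1 gene, LILRA4, against 13.6% of all genes.

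**Figure D1:**
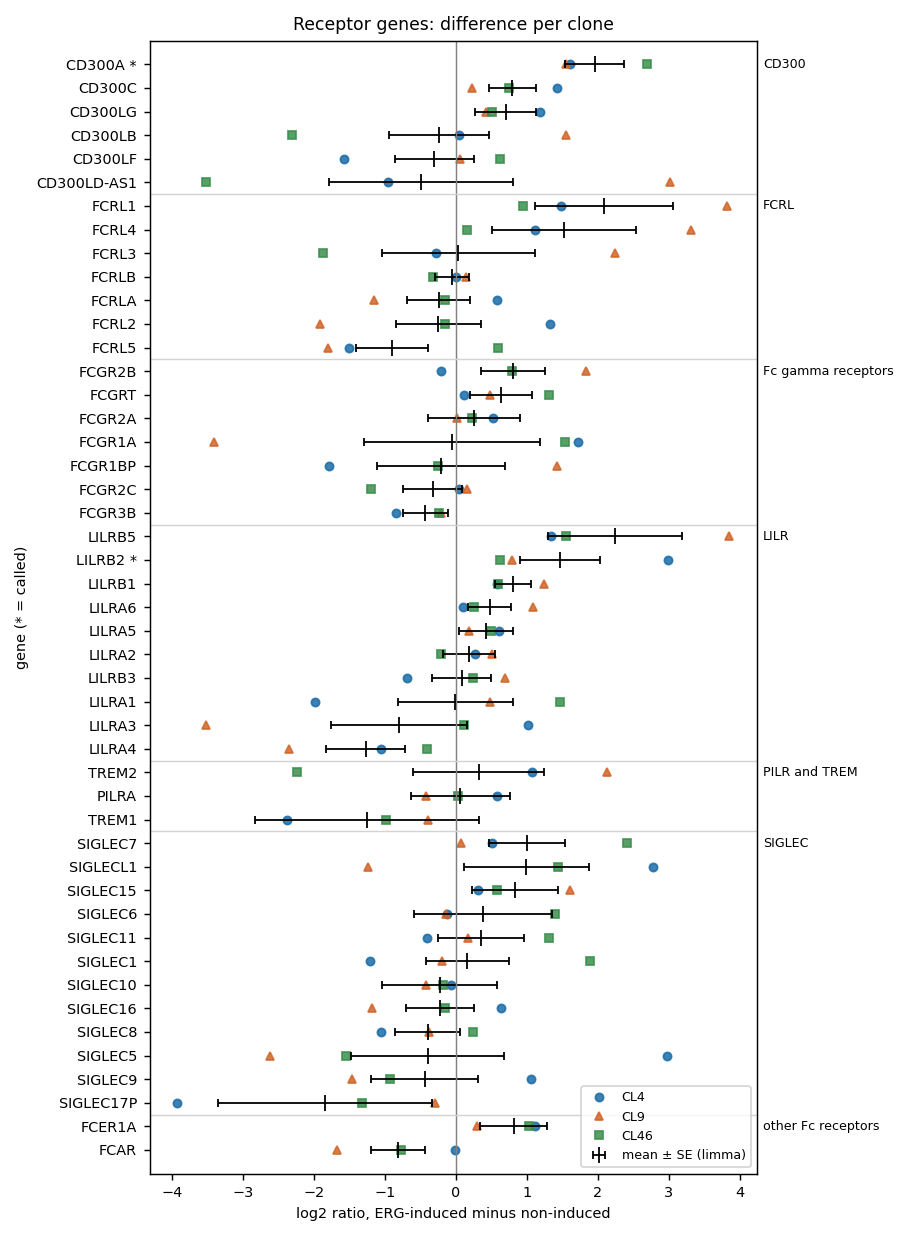
Difference between ERG-induced and non-induced cells for the 47 receptor genes, grouped by family, on a log2 scale. Markers stand for CL4, CL9 and CL46, and the mean and its limma standard error are drawn for each gene. CD300A and LILRB2 are the genes called. The range between clones exceeds the mean for LILRB2 (2.37 against 1.47) and for most genes not called.

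CD300A rose in every clone. It codes for an inhibitory receptor that binds phosphatidylserine and phosphatidylethanolamine on dying cells. Its level was 0.86, 1.04 and 0.82 in the induced arrays of CL4, CL9 and CL46 and -0.75, -0.51 and -1.87 in the non-induced arrays. The groups did not overlap, and the lowest level was that of non-induced CL46. The mean difference was 1.95 (SE 0.41, n = 3 clones, 3.88-fold, adjusted p = 0.206), and leaving out any 1 clone kept the call, at 1.58 to 2.15.

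Its 3 probe sets did not move together. The probe set 217078_s_at was at 0.48, 3.54 and 3.17 induced and -0.71, -1.39 and -2.99 non-induced in CL4, CL9 and CL46, a difference of 4.09 (SE 1.02, adjusted p = 0.226). The probe set 209933_s_at was at 0.33, 1.28 and 1.40 against -2.49, -0.43 and -2.30, a difference of 2.74 (SE 0.67, adjusted p = 0.221). Both had all induced arrays above all non-induced ones, and CL46 had the widest gap in each. The call of 217078_s_at did not hold without CL9 (3.67) or CL46 (3.06), nor that of 209933_s_at without CL46 (2.26). The third, 217072_at, differed by 0.83 in CL4 but by -1.96 in CL9 and -1.76 in CL46, with a mean of -0.97. Without CL4, where the other probe sets were called higher, it was called lower (-1.86). It is the 1 probe set of the gene whose name marks it as specific to a single transcript, so leaving out the _s_at and _x_at probe sets, which may bind several transcripts, turned the gene's direction.

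LILRB2 rose at the thresholds, but unevenly. It codes for an inhibitory receptor for MHC class I molecules. Induced levels were 0.86, 0.55 and -0.02 in CL4, CL9 and CL46, and non-induced levels were -2.13, -0.24 and -0.64. The groups did not overlap, yet the difference was 3.0 in CL4 against 0.79 in CL9 and 0.62 in CL46. The mean was 1.47 (SE 0.57, 2.77-fold, adjusted p = 0.365). The call was lost on leaving out CL4 (0.71), CL9 (1.81) or CL46 (1.89), with the clone as a replicate block (adjusted p = 0.423) and without variance moderation (adjusted p = 0.440); over the alternatives run the adjusted p lay between 0.337 and 0.624. Neither of its 2 probe sets, both of the _x_at kind, passed alone, at 2.19 and 0.75.

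FCRL1 had 1 probe set that rose by nearly the same amount in each clone. It codes for a B cell surface protein with ITAM-type tyrosines in its own tail. Probe set 235982_at was at 1.89, 1.79 and 0.51 in the induced arrays of CL4, CL9 and CL46 and at -0.80, -1.09 and -2.03 in the non-induced arrays. The groups did not overlap, and the clones differed by 2.69, 2.89 and 2.54, so CL46 was lower in both conditions with the same gap. The difference was 2.71 (SE 0.54, adjusted p = 0.189), and it was called with each clone left out. The other probe set, 243968_x_at, gave 0.26, 4.77 and -0.63, and with it the gene as a whole stood at 2.09 (SE 0.97, adjusted p = 0.442), not called. With the clone as a replicate block FCRL1 was called at the same value (adjusted p = 0.381, range over its alternatives 0.213 to 0.796).

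ERG and the other ETS factors bind DNA at a GGAA core, so the promoters of these 3 genes are shown, from RefSeq on GRCh38.p14, each running from 250 bases before to 50 after the annotated start. Capitals mark AGGAAG or CGGAAG, the extended core, or its reverse complement. CD300A lies at chr17:74466123-74466422 on the plus strand, LILRB2 at chr19:54280579-54280878 on the minus strand and FCRL1 at chr1:157820071-157820370 on the minus strand.
CD300A: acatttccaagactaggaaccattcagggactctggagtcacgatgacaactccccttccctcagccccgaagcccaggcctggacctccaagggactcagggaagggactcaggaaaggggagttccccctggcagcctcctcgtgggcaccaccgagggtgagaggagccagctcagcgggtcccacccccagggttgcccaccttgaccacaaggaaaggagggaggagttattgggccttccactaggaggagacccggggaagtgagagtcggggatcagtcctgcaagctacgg
LILRB2: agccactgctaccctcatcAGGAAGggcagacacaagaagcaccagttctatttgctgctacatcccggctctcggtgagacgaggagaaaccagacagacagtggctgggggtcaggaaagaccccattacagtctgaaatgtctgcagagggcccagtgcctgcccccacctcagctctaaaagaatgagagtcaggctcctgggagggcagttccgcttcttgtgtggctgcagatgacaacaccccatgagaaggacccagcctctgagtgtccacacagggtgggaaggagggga
FCRL1: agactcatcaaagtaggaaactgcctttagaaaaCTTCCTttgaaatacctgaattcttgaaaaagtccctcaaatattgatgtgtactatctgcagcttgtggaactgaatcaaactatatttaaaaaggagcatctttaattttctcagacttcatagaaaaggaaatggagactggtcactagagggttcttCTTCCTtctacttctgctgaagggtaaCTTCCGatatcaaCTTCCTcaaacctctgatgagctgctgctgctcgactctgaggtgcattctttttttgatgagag
FCRL1 held 4 matches, the most of any receptor promoter, LILRB2 held 1 and CD300A held 0, although GGAA alone occurred 9 times in the CD300A window. Genes with 2 matches lay on both sides of 0, such as TREM1 (-1.26), FCRL5 (-0.90), SIGLEC15 (0.83) and LILRB5 (2.25). Of the 47 genes 34 had a promoter in the RefSeq table. AGGAAG or CGGAAG, on either strand, occurred in 22 of these 34 (64.7%), against 46.9% of 35116 promoters of the same length. For AGGAAG alone the shares were 61.8% and 33.6%, for CGGAAG alone 11.8% and 19.5%, and for GGAA, which both contain, 97.1% and 95.5%. The promoters of neighbouring, related genes share sequence, so these shares are a description, and a match says only that the letters are there.

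Over single probe sets, 7 of the 97 were called higher (7.22%, against 2.82% of all probe sets) and 2 lower (2.06%, against 8.16%). None passed an adjusted p of 0.05 by limma (the lowest was 0.189), nor did any of all 54613 probe sets (the lowest was 0.086). An unadjusted limma p under 0.05 was found for 9 of the 97, the 9 called. This is a smaller share than the 7180 of 54613 over all probe sets. Induced arrays lay wholly above non-induced ones in 12 (12.4%, against 7.14%) and wholly below in 6 (6.19%, against 15.1%). With the clone as a replicate block 12 probe sets were called higher, among them the 7, and 3 lower. Leaving out a clone gave 9, 10 and 7 called higher without CL4, CL9 and CL46, and 5, 3 and 4 called lower. The counts under other settings stand without the share of all probe sets there, so they describe only how the calls moved.

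**Figure D2:**
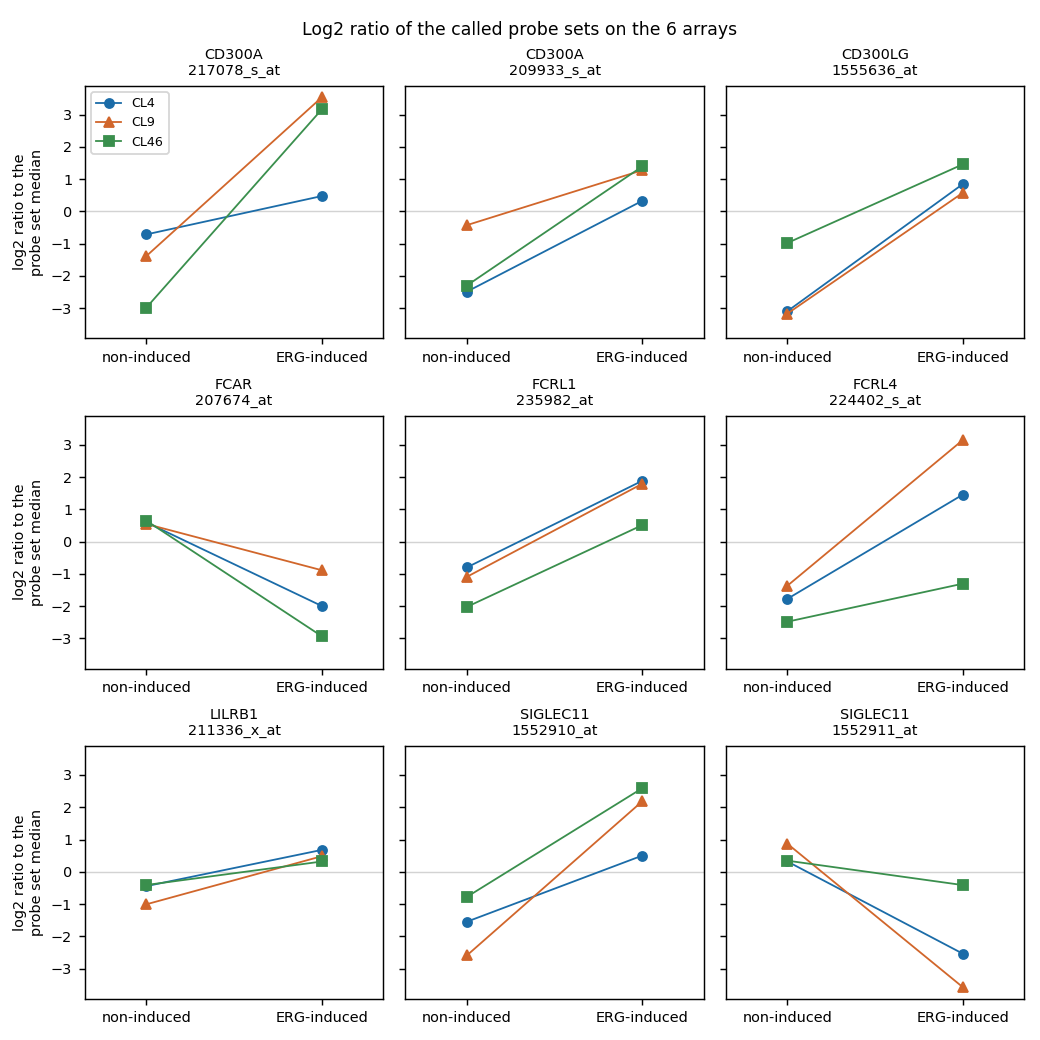
Level of the 9 called probe sets on each of the 6 arrays, as log2 of the deposited ratio. The axis names the probe set median, but the median ratio of FCRL4 224402_s_at was 0.40 rather than 1. Lines join the non-induced and the induced array of CL4, CL9 and CL46. SIGLEC11 1552911_at and FCAR 207674_at fall and the other 7 rise, with no overlap between groups in any of them.

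Among the other CD300 genes, CD300LG, an endothelial member of the family also called nepmucin, had 1 probe set that rose. Probe set 1555636_at was at 0.85, 0.58 and 1.46 induced in CL4, CL9 and CL46 and at -3.10, -3.17 and -0.98 non-induced. The groups were far apart, with non-induced CL46 closest to the induced arrays. The difference was 3.38 (SE 0.69, adjusted p = 0.190), called with each clone left out. The other 3 probe sets of CD300LG ranged from -2.25 to 1.13 and were not called, and the gene stood at 0.70 (SE 0.43). Under alternatives 244244_at was called lower without CL4 (-3.43), and 1552509_a_at was called higher with the clone as a replicate block. CD300C, which pairs with FCER1G and lies in RefSeq order after CD300A and CD300LB with no other coding gene between, was at 0.55, 0.21 and 0.02 induced and -0.87, -0.02 and -0.73 non-induced. Its groups did not overlap, at 0.80 (SE 0.33, adjusted p = 0.402), short of a fold of 2; without CL9 it was called, at 1.08. CD300LB, between them in that order, stood at -0.24 (SE 0.70), and CD300LF, an inhibitory member, at -0.30 (SE 0.56). The antisense RNA CD300LD-AS1 was among the genes that varied most, at -0.96, 3.02 and -3.52 by clone.

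Of the 10 LILR genes 7 were above 0, against 48.2% of all genes, the median was 0.31, and 1 was called, LILRB2. With 10 genes these counts are a description. LILRB1, an inhibitory receptor for MHC class I like LILRB2, was at 0.35, 0.54 and 0.30 induced and at -0.23, -0.71 and -0.30 non-induced. It had non-overlapping groups and a difference of 0.80 (SE 0.26, adjusted p = 0.307). Its probe set 211336_x_at passed a fold of 2, at 1.12 (SE 0.30, adjusted p = 0.242), though not without CL4 (1.11) or CL9 (0.93), and 207104_x_at was at 0.49. LILRB5, an inhibitory receptor named after its values were seen, was at -0.50, 2.11 and 1.92 induced and -1.84, -1.75 and 0.37 non-induced. Its groups overlapped, with induced CL4 below non-induced CL46, and its 2.25 (SE 0.94, adjusted p = 0.403) was not called, except with the clone as a replicate block, with arrays centred or quantile normalized, or without CL4 (2.70).

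The activating LILR genes showed no call in either direction, beside 3.12% higher and 6.32% lower over all genes. LILRA6 stood at 0.48 (SE 0.30), LILRA5 at 0.43 (SE 0.38), LILRA2 at 0.19 (SE 0.37) and LILRA1 at -0.01 (SE 0.82). LILRA4, a receptor of plasmacytoid dendritic cells, was at -0.48, -0.19 and -0.24 induced and 0.59, 2.17 and 0.17 non-induced. Its groups did not overlap and non-induced CL9 was highest, at a difference of -1.28 (SE 0.55, adjusted p = 0.415), not called. The soluble LILRA3 gave 1.02, -3.53 and 0.11 in CL4, CL9 and CL46, so its mean of -0.80 (SE 0.96) rests on CL9; without it the value was 0.56. In the RefSeq order LILRB3, LILRA6, LILRB5, LILRB2, LILRA5 and LILRA4 are neighbours, and their differences were 0.08, 0.48, 2.25, 1.47, 0.43 and -1.28. Of the 22 LILR probe sets 11 are of the _x_at kind, and of the 9 for LILRB genes 8 are, so signal cannot be assigned with certainty to 1 of these closely related genes.

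No SIGLEC gene was called, beside 3.12% higher and 6.32% lower over all genes, and the median of the 12 was -0.03. SIGLEC11, a microglial and macrophage inhibitory lectin, had 1 probe set called each way. Probe set 1552910_at was at 0.50, 2.19 and 2.59 induced and -1.55, -2.60 and -0.78 non-induced. Probe set 1552911_at was at -2.54, -3.58 and -0.41 induced and 0.32, 0.87 and 0.34 non-induced. Neither pair of groups overlapped, and the differences were 3.40 (SE 0.74, adjusted p = 0.195) and -2.69 (SE 0.84, adjusted p = 0.280). The first was called with each clone left out, the second not without CL4 (-2.60) or CL9 (-1.81). Averaged, the gene stood at 0.36 (SE 0.60), a value that does not describe either probe set, and at -0.12 without CL46.

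SIGLEC7, an inhibitory lectin of natural killer cells and monocytes, was at 1.0 (SE 0.54, adjusted p = 0.50), made up of 0.51, 0.08 and 2.41 by clone, so most of it came from CL46. SIGLEC15, which pairs with TYROBP and acts in osteoclasts, was at 0.83 (SE 0.61), above 0 in each clone. SIGLEC5, an inhibitory lectin of neutrophils and monocytes, gave 2.97, -2.63 and -1.54, one of the widest spreads between clones: it was called lower without CL4 (-2.09) and stood at 0.71 without CL9 and 0.17 without CL46. The remaining SIGLEC genes lay between -1.85 (SIGLEC17P, a pseudogene, SE 1.51) and 0.99 (SIGLECL1, SE 0.88), which was called without CL9 (2.11). SIGLEC6, a lectin of placenta and mast cells named after its values were seen, differed between clones more than between conditions. Its 3 probe sets were all highest on the CL9 arrays: 206519_x_at was at 1.76 and 1.75 there, at -2.17 and -1.35 in CL4 and at 0.68 and -1.40 in CL46, induced first.

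Fc gamma receptors, which bind the constant part of IgG, showed no call, and their 7 genes lay between -0.43 and 0.81. Over all genes 3.12% were called higher and 6.32% lower, so 7 genes are few to set against these shares. FCGR2A, the activating receptor known from K562, differed by 0.26 (SE 0.65). Its probe set 203561_at was at 0.49, -0.15 and 0.51 induced and -0.16, -0.50 and 0.14 non-induced, so each clone was higher with DOX, by 0.65, 0.35 and 0.37, while the groups overlapped. The second probe set, 1565673_at, was low on both CL9 arrays, at -2.59 and -2.27, and near 0 on the other 4. FCGR2B, the inhibitory receptor of the family, gave -0.22, 1.84 and 0.79 by clone, averaging 0.81 (SE 0.45, adjusted p = 0.523), and was called without CL4 (1.32). FCGRT, the neonatal Fc receptor that recycles IgG and albumin, was at 0.64 (SE 0.44). FCGR1A, the high-affinity receptor, gave 1.72, -3.41 and 1.53, with CL9 opposite to the other two, and a mean of -0.05 (SE 1.24) that turned to 0.05 with centred arrays. FCGR3B, a GPI-anchored receptor of neutrophils, was at -0.43 (SE 0.32), below 0 in each clone.

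FCER1A and FCAR went opposite ways, though neither gene was called. FCER1A, the IgE-binding chain of the high-affinity IgE receptor, was at 0.82 (SE 0.47, adjusted p = 0.538), with 1.11, 0.30 and 1.03, and was called without CL9 (1.07). Its 2 probe sets differed in kind: 211734_s_at hardly varied (-0.02, SE 0.26), and 1562537_at stood at 1.65 (SE 0.99). FCAR, the IgA receptor of myeloid cells, had 5 probe sets, 4 of them below 0. Probe set 207674_at was at -2.00, -0.89 and -2.94 induced and 0.60, 0.55 and 0.65 non-induced. The groups did not overlap and the non-induced arrays lay close together, at a difference of -2.54 (SE 0.55, adjusted p = 0.197), called lower with each clone left out. The gene's mean was -0.82 (SE 0.38, adjusted p = 0.438); it was called lower without CL4 (-1.23), with the median over probe sets (-1.03) and from 207674_at alone.

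FCRL proteins are B cell relatives of the Fc receptors, and their genes gave no call among 7, beside 3.12% higher and 6.32% lower over all genes. FCRL5, FCRL4, FCRL3, FCRL2 and FCRL1 are neighbours in the RefSeq order, with differences of -0.90, 1.53, 0.03, -0.25 and 2.09, so neighbours did not share a direction. FCRL4, an inhibitory member of tissue memory B cells, had 1 of 3 probe sets called: 224402_s_at was at 1.46, 3.15 and -1.30 induced and -1.78, -1.37 and -2.48 non-induced. These groups came close but did not overlap, at 2.98 (SE 1.15, adjusted p = 0.366), and the call was lost without CL4 (2.85) or CL9 (2.21). FCRL5, which binds IgG, was at -0.90 (SE 0.51, adjusted p = 0.526), with -1.50, -1.80 and 0.60, and was called lower without CL46 (-1.65). Its 5 probe sets ranged from -2.26 to 0.79. FCRLA and FCRLB, which stay inside the cell, were at -0.24 (SE 0.44) and -0.06 (SE 0.24).

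TREM1, an activating receptor of neutrophils and monocytes, had clone differences of -2.38, -0.40 and -0.99, averaging -1.26 (SE 1.58, adjusted p = 0.800), and both CL46 arrays were lowest, at -3.89 and -2.90. TREM2, which signals through TYROBP and senses lipids in macrophages and microglia, gave 1.08, 2.13 and -2.24, a mean of 0.32 (SE 0.92) that was -0.06 without CL4 and -0.58 without CL9. The inhibitory receptor PILRA was at 0.06 (SE 0.69), with both CL4 arrays highest in each of its 2 probe sets.

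The genes were also listed by role, from general knowledge of the families. Among inhibitory receptors 19 of 23 listed were measured, with 2 higher, 0 lower and a median of 0.08, beside 3.12% higher and 6.32% lower over all genes. Among activating receptors 17 of 22 were measured, with 0 called and a median of 0.19. Among the soluble, anchored, intracellular and transport members 8 of 10 were measured, with 0 called and a median of -0.13.

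**Figure D3:**
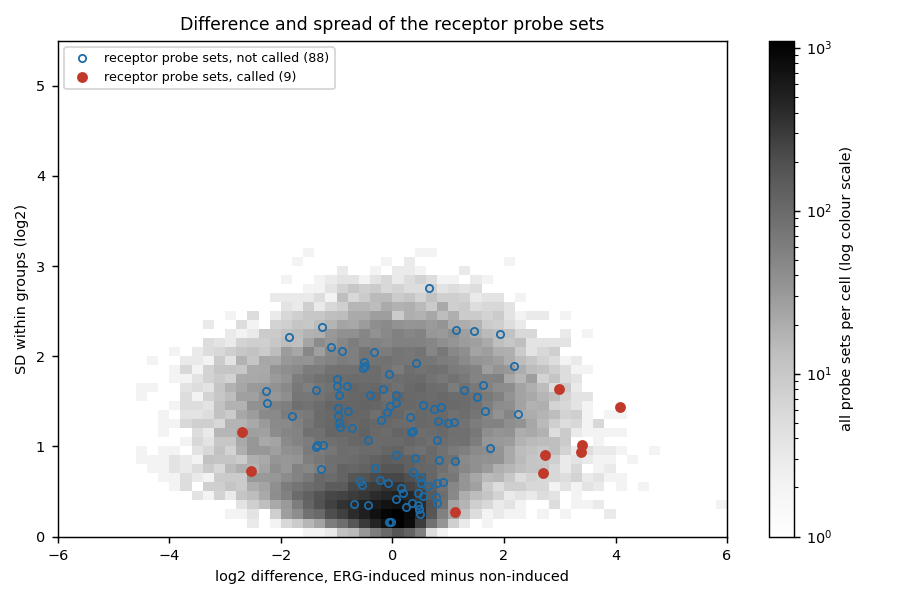
Difference between groups (horizontal, log2) against the standard deviation within groups (vertical, log2) for the 97 receptor probe sets, over the density of all probe sets in grey. The 9 called probe sets are filled. Open circles lie mostly at a standard deviation above 1, higher than the dense grey area.

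Values of these probe sets varied widely within groups. The residual standard deviation had a median of 1.22 over the 97 probe sets, against 0.77 over all probe sets, and it was above 1 in 58 of 97 (59.8%, against 42.4%). Because the values hold no brightness, whether these probe sets were dim was not tested. Of the 26 genes with several probe sets 19 (73.1%) had probe sets of opposite sign, against 54.3% of 10523 genes. Probe sets called both ways occurred in 1 of the 26, SIGLEC11, against 0.808% of those genes. Of the 4 least variable probe sets, FCRLB 238452_at and FCER1A 211734_s_at (standard deviation 0.16 each) differed by -0.06 and -0.02, LILRB1 207104_x_at (0.25) by 0.49 and LILRB1 211336_x_at (0.27), which was called, by 1.12.

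The adaptors FCER1G and TYROBP rose in every clone. FCER1G, the gamma chain through which FCAR, FCGR1A, FCER1A and LILRA proteins signal, was at 0.95, 0.99 and 1.31 induced and -4.24, -5.46 and -4.84 non-induced in CL4, CL9 and CL46. These groups were far apart, at 5.93 (SE 0.37, adjusted p = 0.101). TYROBP, the adaptor of TREM1, TREM2 and SIGLEC15, was at 0.58, 1.20 and 0.73 against -3.87, -0.97 and -1.82. It rose by 3.06 (SE 0.76, adjusted p = 0.242), again without overlap.

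Among all adaptors and kinases of ITAM and ITIM signalling 33 of 35 were measured, with 4 higher (12.1%), 2 lower (6.06%) and a median of 0.23. Over all genes 3.12% were higher and 6.32% lower, so the share lower was at the background. Beside FCER1G and TYROBP, the SRC family kinase FGR (2.91, SE 1.15) and the adaptor LAT2 (1.25, SE 0.48) rose, both named after their values were seen. FGR was not called without CL4 (2.13) or CL9 (2.65), and its 1 probe set was not called in the fit over probe sets. LAT2 was not called without CL9 (0.84) or CL46 (1.29), and its 2 probe sets, at 0.13 and 2.37, were not called. The T cell adaptor LAT (-1.81, SE 0.32) and the T cell kinase LCK (-1.36, SE 0.52) fell, LAT at -0.68 and not called without its _x_at and _s_at probe sets, and LCK with 0.01 in CL4 and no call without CL9 (-1.01) or CL46 (-1.02). SYK was at -0.33 (SE 0.90) and LYN at 0.23 (SE 0.31), neither called. Among phosphatases and docking proteins, which inhibitory receptors recruit, 12 of 13 were measured and 0 were called. PTPN6 stood at 0.62 (SE 0.31), INPP5D at 0.96 (SE 0.62) and PTPN11 at -0.10 (SE 0.46). The 6 probe sets of PTPN11 ranged from -1.45 to 1.63, and 2 of them were called lower, beside 8.16% of all probe sets.

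**Figure D4:**
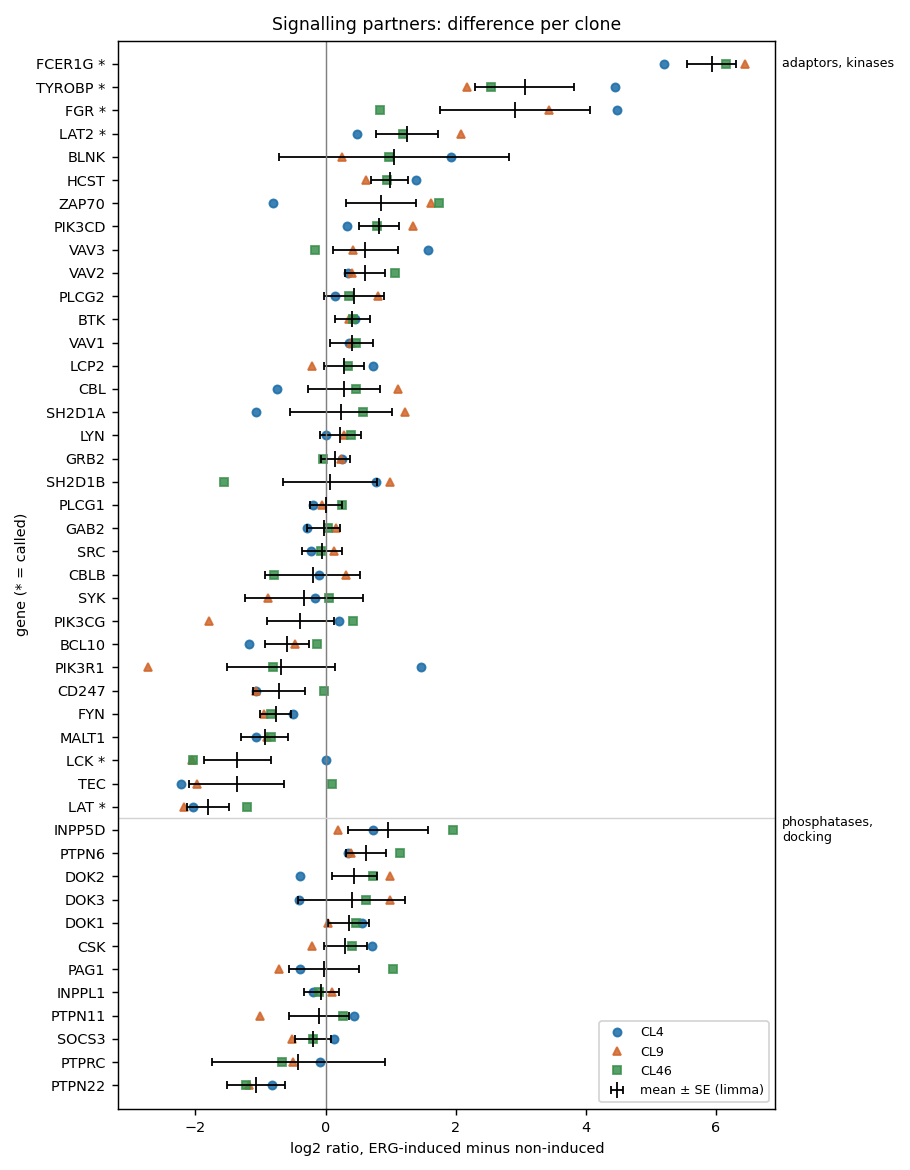
Difference between ERG-induced and non-induced cells (log2) for genes of ITAM and ITIM signalling, by clone, with the mean and its limma standard error. FCER1G and TYROBP show the widest mean gaps, 5.93 and 3.06. The means of the phosphatase genes PTPN6, INPP5D and PTPN11 lie between -0.10 and 0.96. Their single clones go further, to -1.01 for PTPN11 in CL9 and 1.95 for INPP5D in CL46.

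Of other paired and ITIM receptors outside the name rule 40 of 45 were measured, with 4 higher (10.0%, against 3.12% of all genes), 0 lower (against 6.32%) and a median of 0.48. The 4 were KIR3DL1 (2.48, SE 0.42), a natural killer cell receptor for HLA-B, PECAM1 (2.0, SE 0.39), an ITIM adhesion molecule of platelets and endothelium, CLEC5A (2.76, SE 0.79), a TYROBP-linked lectin, and BTLA (2.42, SE 0.90), a lymphocyte inhibitory receptor. CLEC5A was not called without CL9 (2.57) or CL46 (2.14), nor BTLA without CL9 (2.48) or CL46 (1.38). Of the other Fc and immunoglobulin-binding proteins 6 of 7 were measured and 0 were called.

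Markers of cells that normally carry these receptors moved beside them in part, and their part in the results was not tested. The lists are short, and the counts stand beside 3.12% higher and 6.32% lower over all genes. Of 13 monocyte and macrophage markers measured 2 rose, MRC1 (2.61) and AIF1 (1.84), while CD14 gave -0.47, 5.40 and 2.49 and LYZ 0.63 with no call. Of 12 granulocyte and mast cell markers CXCR2 (3.36) and CSF3R (2.13) rose and CLC (-3.10) fell. Of 7 B cell markers PAX5 (1.19) rose, of 10 T and NK cell markers CD3D (-1.23) fell, and of 7 dendritic cell markers CCR7 (-2.45) fell. Of 10 megakaryocyte and platelet markers SELP (3.76), GP1BA (2.38) and ITGB3 (1.23) rose, with a median of 1.28, and of 8 erythroid markers measured TFRC (-1.67) fell. AIF1, CLC, PAX5, CD3D, CCR7 and ITGB3 each lost the call when at least 1 clone was left out. Whether the defining markers of any cell type were absent cannot be read from the deposited ratios.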

How the data were processed

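Total RNA of the K562 clones CL4, CL9 and CL46, with and without DOX, was hybridized to U133 Plus 2.0 arrays, and data were processed by the authors with GeneSpring. The deposited values are linear ratios. Their median across the 6 arrays was 1 (within 1e-05) for 50737 of the 54675 probe sets, as a ratio to the probe set's own median gives. It was less for the other 3938, whose divisor is not known here. The sources used here do not give background correction or array scaling. There were 0 value columns of no mapped sample. The number of arrays limits the precision.

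Ratios were taken to log2. The 62 control probe sets were left out, 54613 were tested, and the 41091 with 1 symbol in the platform annotation were averaged into 19775 genes. All 47 receptor genes were matched to RefSeq by gene ID. Both groups of 3 arrays were compared in limma 3.58.1 under R 4.3.3 (with data.table, version 1.17.8) by lmFit and eBayes, with no intensity trend and no covariate, two-sided. P values were adjusted by Benjamini-Hochberg over all features. The study gives a fold of 2 and p under 0.05 and names no test. Code was tested on simulated data.

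The clone number pairs arrays of the same clone, but over all genes deviations from group means hardly correlated. The correlations were 0.04, 0.05 and 0.03 for CL4, CL9 and CL46. The fit had no block, so the standard errors given come from the spread within groups, not from that of the clone differences. The replicate block was an alternative. The others were array centring, quantile normalization, no variance moderation, leaving out probe sets of median below 1, of the _x_at and _s_at kind or each clone, the median over probe sets, and other thresholds.

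Members, gene lists and rules were chosen with earlier results of these data known, the lists from general knowledge. Named were CD300A, which the study names, every receptor gene called or with a called probe set, the 2 of smallest p in each family, the 5 with the largest spread between clones, up to 4 called genes of each other list, and FCER1G and TYROBP. Other genes were named after their values were seen.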

Additional observations from a re-analysis of the deposited data

How the results depend on the processing

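For the receptor genes called higher (2), the count was 1 without variance moderation, 1 without _x_at and _s_at probe sets (FCRL1, of 35 genes then measured), 5 at a fold of 2 with no p and 0 at an adjusted p under 0.05. Leaving out a clone gave 1 to 4, CD300A being called each time. For genes called lower (0), it was 1 with the median over probe sets and 1 without _x_at and _s_at probe sets (FCAR both times), 3 at a fold of 2 with no p, and 0 to 2 without a clone. For probe sets called higher (7) it was 12 with the replicate block, 19 at a fold with no p, 0 at an adjusted p under 0.05 and 7 to 10 without a clone. For probe sets called lower (2) it was 15 at a fold with no p, 0 at an adjusted p under 0.05 and 3 to 5 without a clone. With the replicate block 3 genes were called higher (CD300A, LILRB5 and FCRL1), and LILRB2, LCK, BTLA and CLC lost their calls. It changed no other call of a named gene. All these counts stand without the share over all features at the same setting, so they show only how the receptor calls moved.

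Of 399 values of 41 named genes under alternatives, 345 kept direction and side of the thresholds, 33 fell short of them, 10 came to pass and 11 changed direction. CD300A was at -0.97 without _x_at and _s_at probe sets. With 1 clone left out, SIGLEC11 ranged from -0.12 (without CL46) to 0.74, TREM2 from -0.58 (without CL9; -0.06 without CL4) to 1.60, CD300LD-AS1 from -2.24 to 1.03 (without CL46), SIGLEC5 from -2.09 to 0.71 (without CL9; 0.17 without CL46), LILRA3 from -1.71 to 0.56 (without CL9) and FCGR1A from -0.94 to 1.63 (without CL9). FCGR1A was at 0.049 with centred arrays and 0.022 with quantile normalization. Apart from what the settings themselves remove, the cause was not tested. Centring and quantile normalization brought the median over all genes from -0.03 up to 0.08 and 0.10, and that of the receptor genes from 0.06 to 0.17 and 0.21. Signal over background is unknown, and the 3 clones set the limit of what can be called.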

Other observations

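A further 5 probe sets carry a receptor of these families beside other symbols and were left out by the name rule. None of them was called. The probe set 1565674_at, shared by FCGR2C and FCGR2A, was at 1.10 (SE 0.79), with 2.87, 0.35 and 0.09 in CL4, CL9 and CL46. The probe set 204006_s_at, shared by FCGR3B and FCGR3A, gave -2.25, 4.21 and -3.65, so CL9 was opposite to the other clones. The probe set 216950_s_at, shared by FCGR1A and 2 related pseudogenes, gave -2.41, -2.71 and 2.89, with CL46 opposite to the others. Both probe sets that carry PILRB, the activating partner of PILRA, with 2 other symbols were lower in the induced array of each clone: 220954_s_at by -1.28, -0.70 and -0.27 and 225321_s_at by -0.75, -0.73 and -0.31. The groups did not overlap in either, at -0.75 (SE 0.31, adjusted p = 0.400) and -0.60 (SE 0.27, adjusted p = 0.438), both short of a fold of 2.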
